A study of Xenopus laevis with 6 samples.

Results

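The control embryos of the series gave 2 libraries, control 1 and control 2, which were set side by side over all 35773 gene models counted. They are 2 of the 6 libraries of poly(A) RNA from whole embryos of *Xenopus laevis*, the African clawed frog, and every library is labelled NF stage 32, a tailbud stage in the table of Nieuwkoop and Faber. The other 4 libraries came from embryos injected, by the labels at the 2-cell stage, with a morpholino (MO), an antisense oligonucleotide that blocks an mRNA. These are *kdm5c* MO 1 and 2, and *kdm3a* MO 3 and 4, whose labels carry a later date. No treatment is given for the controls, and the labels do not say whether they were injected, from which clutch they came or how many embryos were pooled. The labels number the other control 2 in a title and 3 in a description, of which 2 is kept here. Of the models, 26506 carry a name, and 24353 had a mean of at least 1 count per 1e+06 (CPM) over the controls, with library sizes scaled by TMM, a trimmed mean of log ratios. With 1 library a side no test can be made, so every difference below is a description of these libraries. It is written as log2 of control 1 over control 2 after adding 0.5 CPM to both, and a positive value means higher in control 1.

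The raw totals were close, with 14603570 counts in control 1 and 14718840 in control 2, while the TMM factors that scale them were 1.03 and 1.16, and 30293 and 32269 models had a count. Among counts of 20 or fewer, 91.4% in control 1 and 90.5% in control 2 were even, so that reads appear to have been counted in pairs, and counting intervals were computed on halved counts. They are 95% intervals for counting error only, with a median width of 0.27 on the log2 scale for named models with at least 100 counts in both controls. The intervals are for the ratio without the added 0.5 CPM. Where a count is low, the printed difference is therefore nearer to 0 than the ratio its interval covers. A count of 0 was taken to allow up to 3 read pairs, that is 0.400 CPM in control 1 and 0.353 CPM in control 2.

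The controls were not close to each other, although they carry the same stage label. Between them 11% of the models differed more than 4-fold. Against the 4 MO libraries the share ran from 8.58% to 17% for control 1, and from 0.686% (*kdm5c* MO 2) to 13.2% (*kdm5c* MO 1) for control 2. Control 1 was not alone in this, as *kdm5c* MO 1 differed from the 5 other libraries in 4.78% to 16.6% of models. Defining products of the liver, the lens, red blood cells and pigment cells were at 0 in control 1 and present in the 5 other libraries. *apob.L*, *cryba1.S*, *hbd.S* and *dct.L* are examples. The stage of the embryos cannot be read from the count table itself, and its part in the differences was not tested. In whole embryos, fewer cells of a type and less RNA per cell cannot be told apart.

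At tailbud stages the *Xenopus* embryo lengthens from its posterior end, where progenitors of the tail bud are laid down as somites, while organs along the body begin to make the proteins they are known for. Genes that pattern the embryo are used early and shut down in most tissues, and organ products such as plasma proteins, crystallins and pigment enzymes come later. *X. laevis* is an allotetraploid, so that most genes are present as an L and an S copy, which carry these letters in their names. Copies that are very similar can divide their reads, and the value of a given copy is uncertain to that extent.

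The most abundant transcripts were those of the skin and the muscle, and of protein synthesis and folding. The 10 models with the most counts took 5.41% of all counts in control 1 and 5.04% in control 2, the top 100 took 17.6% and 17.2%, and the top 1000 took 45.0% and 43.0%. Such shares also scale with transcript length, so they do not rank transcripts by number. *krt5.7.S* was counted 118668 times in control 1 and 125826 times in control 2, that is 0.813% and 0.855% of all counts, and *krt5.7.L* had 90027 and 81483 counts. Both copies encode a keratin of the larval epidermis and differed by 0.10 and 0.33, so the leading transcript of the embryo was close to equal in the controls. *hspa8.S*, a constitutive chaperone, had 78722 and 63236 counts, *cirbp.S*, a cold-inducible RNA-binding protein, had 68099 and 40251, and *eef2.1.L*, a translation elongation factor, had 42575 and 60581. *itln1.L*, a lectin secreted by skin cells, had 33890 counts in control 1 and 41598 in control 2 (-0.11).

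Other abundant transcripts were far from equal. *ckm.L* was counted 9093 times in control 1 and 50485 times in control 2, *atp2a1.S* 12609 and 65180 times, and *myh1-4.L3* 7493 and 62415 times. These encode muscle creatine kinase, the calcium pump of the sarcoplasmic reticulum and a myosin heavy chain, and all were lower in control 1, with differences of -2.29, -2.19 and -2.87. On the other side stood *ncl.L*, the nucleolar protein nucleolin, with 54417 and 24213 counts (1.35), and *krt.S*, a model named only as a keratin, with 55696 and 6937 (3.19). Among the 1000 most abundant models the most displaced towards control 1 also held *smad4.1.S*, a mediator of TGF-β signals, with 27945 and 1838 counts, *blvra.L*, a biliverdin reductase, with 10653 and 622, and *ficd.S* with 10879 and 1178. Their differences were 4.10, 4.26 and 3.38. For *smad4.1.S* the MO libraries gave no common level, since the CPM was 4590.0 and 1632 in *kdm5c* MO 1 and 2, and 622 and 108 in *kdm3a* MO 3 and 4.

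Over all 24353 models the median difference was 0.022, and 16689 models (68.5%) lay within 2-fold. More than 4-fold higher in control 1 were 629 models (2.58%), and more than 4-fold lower were 2050 (8.42%). At 2-fold these were 2751 (11.3%) and 4913 (20.2%), and past 16-fold 86 and 300. These shares are the background for the lists below. The models lower in control 1 lay mostly at low levels, with 16.4% of models more than 4-fold lower at a mean of 1 to 3 CPM and 3.44% at 30 to 100 CPM, whereas the share more than 4-fold higher stayed between 2.16% and 4.61% in all bins. A count of 0 in control 1 beside at least 100 in control 2 was found for 138 models, 117 of which were above 0 in all 4 MO libraries. The converse, 0 in control 2 and at least 100 in control 1, was found for 6.

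**Figure D1:**
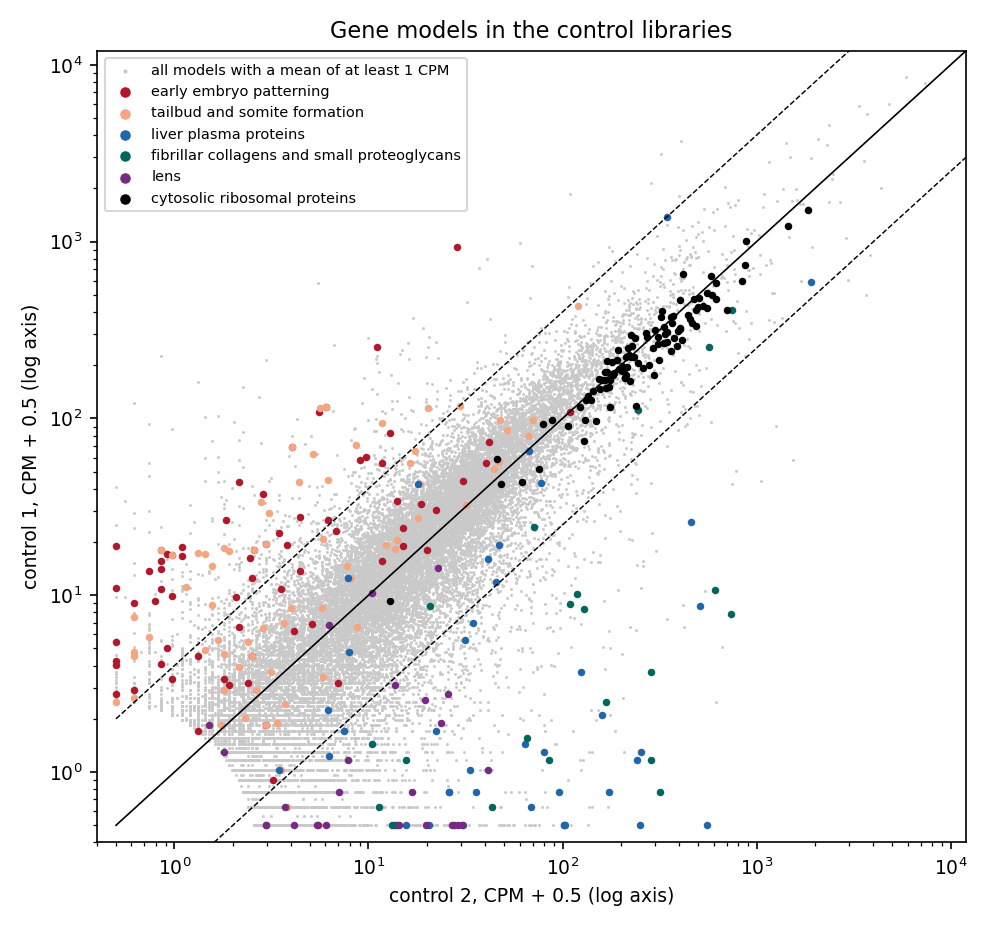
Level of each gene model in control 1 (vertical, CPM + 0.5, log axis) against control 2 (horizontal, same scale), with members of 6 gene lists in colour. The solid line marks equal levels and the dashed lines 4-fold differences. Ribosomal proteins follow the solid line, liver, collagen and lens genes lie far below it, several at 0 in control 1, and early embryo and tailbud genes lie above it.

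Lists of genes for tissues and cell states were then compared by their counts and medians. The lowest median was that of liver plasma proteins, of which 41 of 51 models passed the filter, 29 of them more than 4-fold below control 2, against 8.42% of all models, and 0 that far above it, against 2.58%. Their median was -5.01, or -5.07 with counts of 0 set to the floor. Over all models found, with no filter, it was -2.49, and the lists below of collagens, of the lens and of glucose and fatty acid enzymes were then lower. In the MO libraries the median of the plasma protein list over control 2 ran from -1.29 (*kdm5c* MO 1) to 0.59 (*kdm5c* MO 2). Plasma proteins are made in the liver and secreted into the blood. *apob.L* was counted 0 times in control 1 and 9440 times in control 2, at least 1387-fold lower in control 1 with 3 read pairs as the floor. It encodes the apolipoprotein of large lipoprotein particles, and *apoa1.S*, the main apolipoprotein of the dense ones, was at 0 and 4253 counts and at least 625-fold lower. The fibrinogen chains *fga.S* and *fgg.S* had 4 and 2943, and 0 and 1747 counts, and the protease inhibitor *serpina1.S* had 10 and 4081. The same held for *ttr.S*, a carrier of thyroid hormone, with 4 and 1616 counts, and *rbp4.S*, the retinol carrier, with 2 and 1154. Of the complement factors, *c3.L* had 8802 and 32339 counts (-1.69, interval -1.74 to -1.65) and *c9.L* had 380 and 7754 (-4.14), while *cfb.L*, complement factor B, was near equality with 969 and 1138 (-0.049, interval -0.23 to 0.13). The exception among the abundant members was *a2m.S*, the broad protease inhibitor alpha-2-macroglobulin, with 20587 counts in control 1 and 5896 in control 2 (1.98, interval 1.93 to 2.05). The 4 MO libraries had 347 to 523 CPM of it, near the 347 of control 2 and below the 1374 of control 1.

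**Figure D2:**
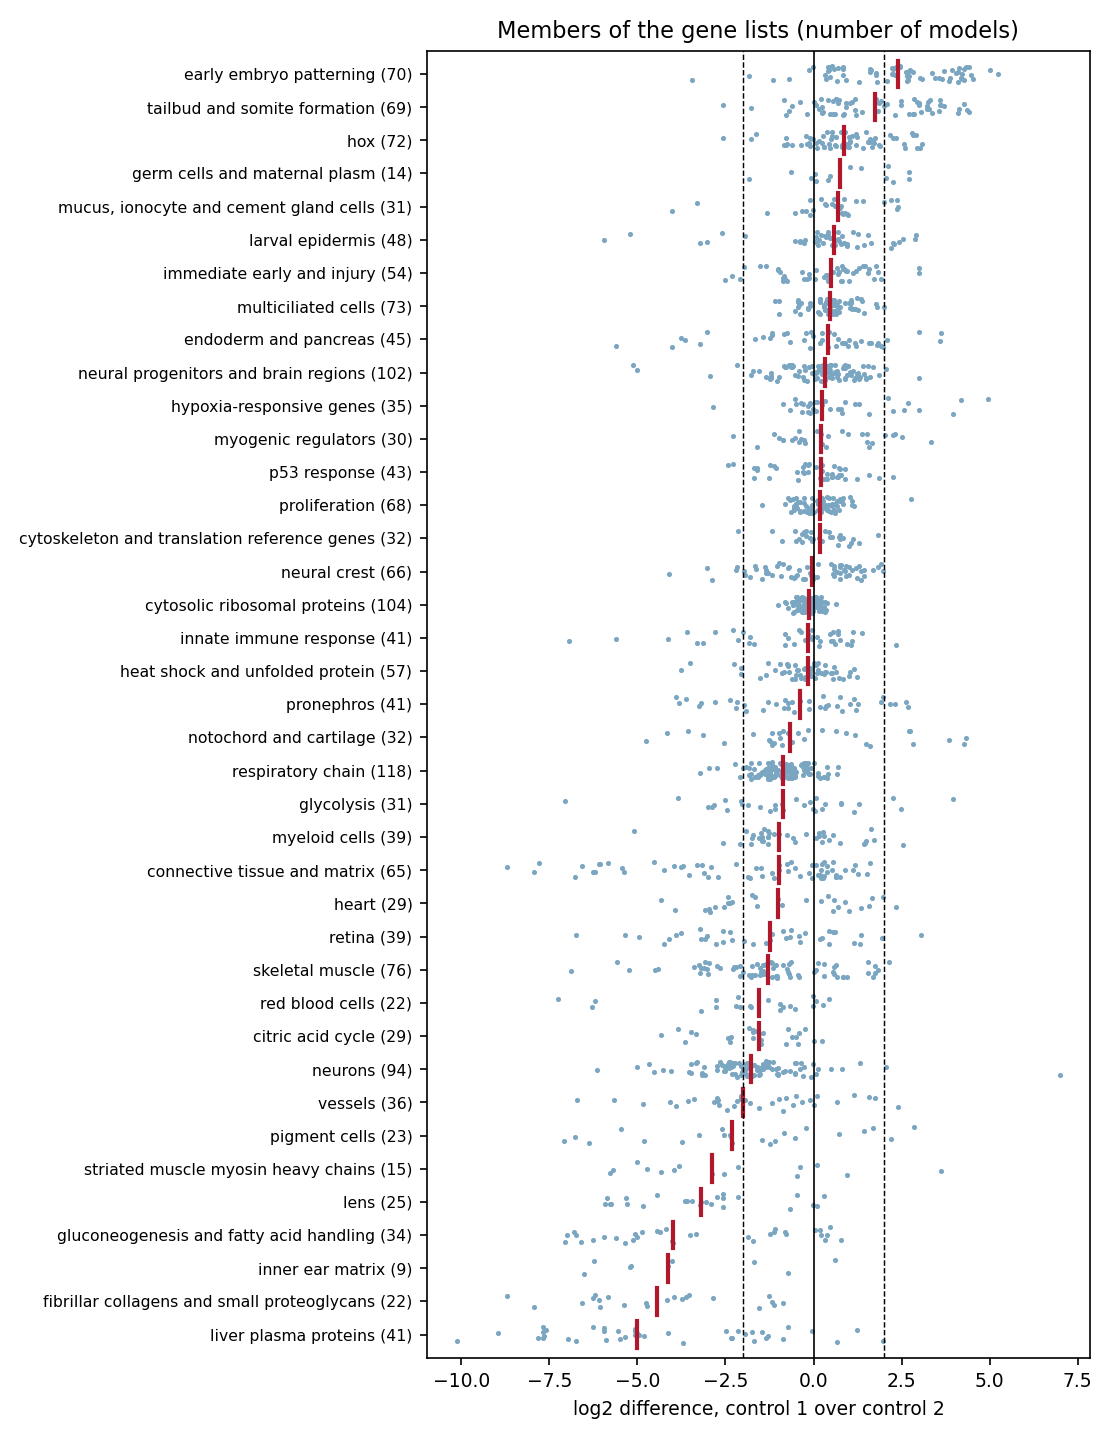
Difference of each list member between the controls (log2, control 1 over control 2), in 1 row per list, with the number of models that passed the filter in brackets. Red bars are list medians, which run from -5.01 for liver plasma proteins to 2.40 for early embryo patterning, and dashed lines mark 4-fold.

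Enzymes by which the liver and gut make glucose and handle fatty acids were gathered in a list chosen after the values were seen. Of its 34 models, 20 were more than 4-fold lower in control 1 and 0 more than 2-fold higher, against 11.3% of all models (median -4.0, or -4.21 with counts of 0 at the floor). *pck1.S* was counted 0 times in control 1 and 1082 times in control 2, and *g6pc.S* 0 and 931 times. They encode phosphoenolpyruvate carboxykinase and glucose-6-phosphatase, an early step and the last step proper to gluconeogenesis, and the copy *pck1.L* was likewise at 4 and 1002. *fbp1.L*, fructose-1,6-bisphosphatase, which works between them, was present in both, at 6936 and 13503 counts (-0.78). The fatty acid binding proteins *fabp2.L* and *fabp1.L* followed the first pattern, at 0 and 407 and, for the second, 0 and 128 counts. *cpt1a.L*, which brings fatty acids into mitochondria, did not, at 7048 and 4697 counts (0.77). The members named here thus lay either at or close to 0 in control 1 or within 2-fold. Over the whole list 25 of the 34 models were more than 2-fold lower, and 14 of the 38 models found were at 0 in control 1.

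Fibrillar collagens and the small proteoglycans that bind them were the next list, also chosen after the values were seen, with 17 of 22 models more than 4-fold lower in control 1 and a median of -4.45, or -4.58 at the floor. The list median over control 2 was also low in *kdm5c* MO 1 (-2.03), and ran from -0.63 to -0.46 in the other MO libraries. *col1a1.L* was counted 4 times in control 1 and 5379 times in control 2, *col1a1.S* 110 and 12599 times, and *col1a2.L* 153 and 10340 times. They encode the chains of type I collagen of skin, tendon and bone, and the differences were -8.69, -6.56 and -5.83. *col3a1.L*, type III collagen, had 10 and 4822 counts (-7.93), and *col6a1.S*, type VI collagen, had 2 and 2396 (-7.80, interval -15.35 to -7.56). The proteoglycans lumican and decorin behaved alike, with *lum.L* at 30 and 2853 and *dcn.L* at 16 and 1109 counts. Type II collagen, the collagen of notochord and cartilage, was lower by far less, as *col2a1.L* had 6128 and 12612 counts (-0.86) and *col2a1.S* had 3767 and 9657 (-1.17). In the wider matrix list, 25 of 65 models lay more than 4-fold below control 2 and 0 that far above it. Its median over control 2 was -0.98 in control 1 and as low in *kdm5c* MO 1 (-1.01). Yet fibronectin, the glycoprotein along which mesoderm migrates, was higher in control 1. *fn1.S* had 12285 and 6148 counts (1.18) and *fn1.L* had 5071 and 1993 (1.53). The laminin chain *lama1.L* had 3589 and 1685 (1.27). Such members were few, as 5 of the 65 models (7.69%) were more than 2-fold higher, against 11.3% of all models. More than 2-fold lower were 32 (49.2%), against 20.2% of all models.

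The eye list furthest down was that of the lens, with 20 of 25 models more than 4-fold lower in control 1, 0 more than 2-fold higher and a median of -3.20. In *kdm3a* MO 4 the list median over control 2 was also low (-2.37), and in the other MO libraries it ran from -0.92 to -0.62. Crystallins are the structural proteins that make the lens clear. *cryba1.S* was counted 0 times in control 1 and 510 times in control 2, *cryba1.L* 0 and 483 times, and *crybb1.L* 0 and 461 times, at least 74.9, 70.9 and 67.7-fold lower. *lim2.L*, a membrane protein of lens fibres, had 8 and 692 counts, and *mip.L*, the water channel of the fibres, had 0 and 235. The transcription factors of the lens had a median of -2.36, but *pitx3.L*, one of those that mark the lens before its fibres form, had 146 and 168 counts (-0.019).

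In the retina list 16 of 39 models lay more than 4-fold below control 2 and 1 that far above it (median -1.24). *rax.L*, a factor of the early eye field, had 778 and 223 counts in control 1 and control 2 (1.94, interval 1.67 to 2.29), whereas *atoh7.S*, which starts retinal ganglion cells, had 5 and 429 (-4.95) and *crx.S*, of the photoreceptor lineage, had 162 and 624 (-1.72). These 3 genes pointed in both directions, and of all 19 factor models in the list 4 were more than 2-fold higher and 7 lower (median -0.38). The list median over control 2 was also low in *kdm3a* MO 4 (-1.23) and *kdm5c* MO 1 (-1.0). *rlbp1.L* and *rgr.S*, of the visual cycle, had 19 and 513 and, for the second, 2 and 197 counts. *rpe65.S*, which carries the name of another visual cycle enzyme, stood against them with 1983 and 266 counts (3.04), while its L copy had 32 and 92 (-1.17).

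Structural proteins of the inner ear, listed after the values were seen, had few counts in control 1, and 9 of 14 models found passed the filter. *otog.S* was counted 3 times in control 1 and 1087 times in control 2, *oc90.S* 2 and 808 times, and *otol1.L* 10 and 719 times. They encode otogelin of the gel over the hair cells, and otoconin and otolin of the ear stones, and 6 of the 9 models were more than 4-fold lower (median -4.12, or -4.26 at the floor, and -1.49 over all 14). *tecta.1.L*, named after a tectorin of the inner ear, had 52 and 36 (0.60). The list median over control 2 was also low in *kdm3a* MO 3 (-2.83), and ran from -1.25 to -0.73 in the other MO libraries.

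Pigment cells arise from the neural crest and in the outer layer of the eye cup, and make melanin with enzymes of the tyrosinase family. *dct.L* was counted 0 times in control 1 and 1154 times in control 2, *tyr.S* 4 and 1083 times, and *tyrp1.L* 10 and 2165 times. These 3 models were therefore at or close to 0 in control 1, as was *oca2.L*, a melanosome transporter, with 0 and 370. In the list as a whole 12 of 23 models lay more than 4-fold below control 2 and 2 that far above it (median -2.30). The crest factor *sox10.S*, which acts before pigment is made, was among the members higher in control 1, with 856 and 295 counts (1.69, interval 1.44 to 1.99). *rab32.L*, a GTPase of melanosome traffic that other cells also use, had 1575 and 242 (2.84), but its copy *rab32.S* had 26 and 73 (-1.10).

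Red blood cells and vessels form from neighbouring ventral mesoderm. The globins *hbd.S*, *hbd.L* and *hbz.S* were at 0, 0 and 0 counts in control 1 and at 1279, 660 and 624 in control 2, at least 188, 96.9 and 91.7-fold lower. *alas2.S*, the first enzyme of haem synthesis in red cells, was present in both, with 89 and 366 counts (-1.77). *tal1.S*, a factor that starts blood, was near equality with 289 and 238 (0.45), and 9 of the 22 models of the list were more than 4-fold lower, with 0 more than 2-fold higher (median -1.54). The 6 models of transcription factors in the list had a median of -1.05, 3 of them more than 4-fold below control 2 and 0 more than 2-fold above it.

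The vessel list had 18 of 36 models more than 4-fold below control 2 and 1 that far above it (median -1.99). Its median over control 2 was also low in *kdm5c* MO 1 (-1.12), and ran from -0.31 to 0.017 in the other MO libraries. *cdh5.L* and *cdh5.S*, the cadherin that joins endothelial cells, had 0 and 0 counts in control 1, against 421 and 237 in control 2. *stab2.L*, a scavenger receptor of endothelium, had 4 and 1371 (-6.73). *etv2.L*, which starts the endothelial lineage, and *aplnr.S*, the apelin receptor found on angioblasts and early mesoderm, were on the other side, with 220 and 69 counts (1.74) and 1751 and 372 (2.39). Among myeloid genes 3 of 39 (7.69%) lay more than 4-fold below control 2 and 1 (2.56%) that far above it, near the 8.42% and 2.58% of all models. At 2-fold 19 (48.7%) lay below and 6 (15.4%) above, against 20.2% and 11.3% of all models. The copies of *mpo*, the peroxidase of white cell granules, disagreed, with *mpo.L* at 916 and 2933 (-1.49) and *mpo.S* at 3156 and 1301 (1.45).

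Skeletal muscle genes were abundant in both libraries but differed by gene. In control 1, 47 of 76 models were more than 2-fold lower, against 20.2% of all models, 22 of them more than 4-fold, and 7 were more than 2-fold higher (median -1.28). *actc1.L*, an alpha-actin made in the somites, was counted 13912 times in control 1 and 32751 times in control 2, a difference of -1.05 (interval -1.09 to -1.01). *casq1.S* and *casq1.L*, the calcium store of the fibre, had 88 and 4050, and 6 and 1798 counts (-5.23 and -6.88), so the store differed by far more than the actin. *unc45b.S*, a chaperone that folds myosin, had 4373 and 2776 (0.84), and the copies *klhl40.L* and *klhl40.S* of a sarcomere factor had 1416 and 544 (1.55) and 228 and 556 (-1.08), in opposite directions. *pygm.S*, glycogen phosphorylase of muscle, had 10100 and 3414 (1.74). Of the myosin heavy chains, listed after the values were seen, 10 of 15 models lay more than 4-fold below control 2 and 1 that far above it (median -2.87). *myh1-4.L1* was near equality at 25842 and 27561 counts (0.089), *myh1-4.L4* had 859 and 26194 (-4.74) and *myh1-2-2.S* had 151 and 9214 (-5.68), while *myh1-3-1.L* had 326 and 22 (3.63). These models are close relatives that can divide their reads. Of the myogenic factors, *myod1.S* and *myf5.L*, which commit cells to muscle, had 1892 and 440 counts (2.26) and 512 and 50 (3.33), whereas *myog.L*, which acts later in fibre formation, had 14 and 66 (-1.61). The whole list of 30 myogenic regulators was mixed, with 17 models above 0 and 13 below it (median 0.22). In it 10 models (33.3%) were more than 2-fold higher and 3 (10%) lower, against 11.3% and 20.2% of all models.

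The heart list held genes of both directions. Its contractile genes *myh6.L*, *myl7.L* and *tnnt2.L* had 12, 6 and 2 counts in control 1 and 436, 226 and 82 in control 2, with differences of -4.33, -3.94 and -3.07 (interval of the last -10.51 to -2.62). The cardiac factors *nkx2-5.S*, *tbx20.L* and *gata6.S* had 305, 839 and 1326 in control 1 and 81, 294 and 589 in control 2, with differences of 1.99, 1.67 and 1.34. Not all factors were on that side, as *hand2.L* had 52 and 514 (-2.95) and *tbx5.L* had 10 and 58 (-1.74). The list median of -1.0 therefore joined unlike genes, and it was 0.55 among models with a mean of at least 5 CPM.

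Neuronal genes were lower in control 1 over nearly the whole list, in 74 of 94 models more than 2-fold and in 39 more than 4-fold, with 3 more than 2-fold higher (median -1.77). *nefm.S* was counted 17 times in control 1 and 883 times in control 2, *ina.S* 4 and 915 times, and *stmn2.L* 93 and 1011 times. The first pair are neurofilament subunits of axons and the last a microtubule regulator of growing neurites. *cplx1.S*, a complexin of synaptic release, had 24 and 819 (-4.53), and *elavl3.L*, an RNA-binding protein of newly born neurons, had 892 and 1242 (-0.29), so the synaptic and axonal genes named here were further down than this early marker. The 3 members more than 2-fold higher were the copies *mnx1.L* and *mnx1.S* of a motor neuron factor, with 293 and 73 and, for S, 103 and 42 counts, and *gad1.2.L*, described among the copies below. Neural progenitor and brain region genes showed no such shift (median 0.32), with *sox3.L*, a factor of dividing neural cells, at 1599 and 671 counts (1.42) and *fabp7.L*, of radial glia, at 68 and 2967 (-5.12).

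On the higher side, genes that pattern the gastrula and the neurula made a list chosen after the values were seen, with 70 of 95 models past the filter, 42 of these more than 4-fold higher in control 1 and 1 more than 4-fold lower (median 2.40). The list median over control 2 was also raised in *kdm5c* MO 1 (1.09), and ran from 0.029 to 0.64 in the other MO libraries. *chrd.S*, the BMP antagonist of the organizer, was counted 1617 times in control 1 and 86 times in control 2 (4.29). Ventral genes were displaced as well, as *szl.L*, which protects chordin from cleavage, had 555 and 40 counts (3.72) and *ventx1.2.L*, a homeobox repressor downstream of BMP, had 203 and 6 (4.04). These dorsal and ventral genes thus shared a direction. *foxh1.L* was counted 277 times in control 1 and 0 times in control 2, at least 52.4-fold higher, and *ventx3.2.L* 158 and 0 times, at least 29.9-fold higher. *foxh1* carries nodal signals to the genome in the early embryo, and *nodal1.L* itself had 56 and 0 counts. Endoderm factors were included, with *sox17a.S* at 869 and 145 (2.70) and *sox17b.1.S* at 242 and 10 (3.94), and the pluripotency factor *pou5f3.1.L* had 226 and 6 (4.19). Against the list went *eomes.L*, with 0 and 85 counts, a T-box gene that is used in the early mesoderm and again in the brain.

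Genes of the tail bud and of somite formation had 28 of 69 models more than 4-fold higher in control 1 and 1 more than 4-fold lower (median 1.73). Of the posterior genes, *cdx4.L*, a caudal homeobox factor, had 1734 and 94 counts (4.27), *wnt8a.S* had 264 and 6 (4.41) and *t.S*, brachyury, had 263 and 35 (2.82). *post.S*, a gene of the posterior embryo in *Xenopus*, had 13904 and 477 counts in control 1 and control 2 (5.02, interval 4.86 to 5.24), and was at 17 to 73.5 CPM in the MO libraries, against 928 in control 1. Of the genes of the presomitic mesoderm, *tbx6.a* had 1716 and 87 (4.36), *msgn1.L* had 269 and 22 (3.36), and *hes7.2.S*, of the segmentation clock, had 250 and 16 (3.58). *mespa.S* and *ripply2.S*, which set the boundary of each new somite, had 105 and 2 and, for the second, 432 and 44. These genes of segmentation were thus higher in control 1, in L and S alike where both passed. The Notch ligand and modifier did not follow, with *dll1.L* at 846 and 791 (0.28) and *lfng.S* at 1460 and 1191 (0.47), and both are also used in neural tissue. *lin28a.L*, an inhibitor of *let-7* maturation in early cells, had 6499 and 2044 (1.85), while *lin28b.L* was near equality at 1177 and 1125 (0.25).

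The *hox* genes give each level of the body axis its identity, in paralogue groups that run from the hindbrain to the tail. Grouped after the values were seen, 29 of 72 models were more than 2-fold higher in control 1 and 3 more than 2-fold lower (median 0.87), but not evenly along the axis. Groups 1, 6, 7 and 8 had medians of 2.45, 1.60, 2.39 and 1.49, whereas groups 2 to 5 lay between 0.29 and 0.85. Groups 9 and 10 had medians of 0.92 and 1.13. At the posterior end the medians were 0.33 in group 11, -0.42 in group 12 and -0.83 in group 13. *hoxa7.S* was counted 258 times in control 1 and 27 times in control 2, and *hoxd1.S* 130 and 12 times (3.08 and 2.93). *hoxa13.L*, of the tail tip, had 2 and 56, and all 5 models of group 13 were lower in control 1. The posterior genes *cdx4.L*, *wnt8a.S* and *t.S* named above and the most posterior *hox* genes therefore pointed in opposite directions. The group 13 genes are also members of the tail bud list, where *hoxa13.L* is the 1 model more than 4-fold lower. Over all *hox* models the median over control 2 was 0.88 in *kdm3a* MO 3, near the 0.87 of control 1. It was 0.63 in *kdm5c* MO 1, 0.34 in *kdm3a* MO 4 and 0.13 in *kdm5c* MO 2.

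**Figure D3:**
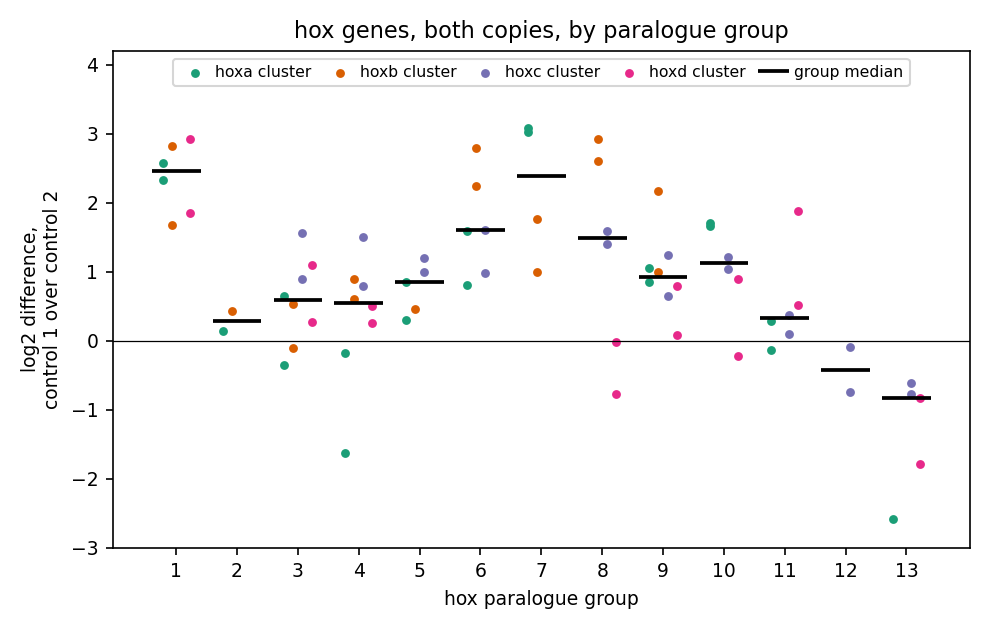
Difference of each *hox* model between the controls (log2, control 1 over control 2) by paralogue group, with L and S copies as separate points coloured by cluster and black bars for group medians. Group 1 and groups 6 to 8 are highest, and groups 12 and 13 lie below 0.

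Single genes of the surface of the embryo differed in both directions. In the larval epidermis list 7 of 48 models (14.6%) were more than 4-fold higher in control 1, against 2.58% of all models (median 0.57). The 5 models (10.4%) more than 4-fold lower were near the share of all models, 8.42%. The keratin pair of simple epithelia was higher, with *krt8.S* at 31983 and 4829 counts (2.91) and *krt18.S* at 13937 and 2941 (2.42). *krt16.S* and *krt15.L*, keratins named after those of stratified skin, were lower, with 1416 and 9855 (-2.61) and 0 and 516 (at least 75.8-fold), as was *col17a1.L*, a collagen that anchors basal cells, with 12 and 818 (-5.22), though its copy *col17a1.S* had 28 and 16 (0.72). The cement gland, the mucus organ by which the young larva hangs, was led by *ag1.S* and *agr2.L*, with 8331 and 1819 counts (2.37) and 4492 and 1276 (1.99). Ciliated cell genes were tightly grouped, with 0 of 73 models past 4-fold in either direction and a median of 0.47.

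*has1.S*, a synthase of hyaluronan, was counted 3908 times in control 1 and 104 times in control 2 (5.30, interval 5.02 to 5.84), and its relative *has-rs.S* 357 and 6 times. *spam1.L*, which by its name is a hyaluronidase, had 1293 and 8 (6.48). Makers of hyaluronan and an enzyme that cuts it were thus among the 15 largest differences towards control 1, beside *angpt4.S*, an angiopoietin, with 1509 and 16 counts (6.13).

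Several lists of general cell functions lay close to equality. Cytosolic ribosomal proteins had 0 of 104 models past 4-fold and 1 more than 2-fold lower (median -0.13), and proliferation genes had 1 of 68 more than 4-fold higher and 0 lower (median 0.19). *top2a.L*, the topoisomerase of dividing cells, had 6624 and 6507 counts (0.21) and *mcm7.L*, of the replicative helicase, had 4548 and 3652 (0.50). The p53 response (0.21) and the heat shock and unfolded protein lists (-0.17) were likewise near 0. Reference genes of the cytoskeleton and translation had a median of 0.18. Immediate early genes had 0.48, with 14 of 54 models (25.9%) more than 2-fold higher and 8 (14.8%) lower, against 11.3% and 20.2% of all models. Endoderm and pancreas genes, a tissue list, had a median of 0.42 but were spread widely. In that list 13 of 45 models (28.9%) were more than 2-fold higher and 11 (24.4%) lower. Neural crest genes had a median of -0.034 that joined unlike members. *snai2.L*, a factor of crest emigration, had 808 and 228 (1.97), whereas *barx1.L* and *prrx1.L*, of crest in the face and arches, had 4 and 215 (-4.10) and 92 and 432 (-1.96).

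Mitochondrial genes were lower in control 1 by a small but broad margin. In the respiratory chain 108 of 118 models had negative differences, 50 beyond 2-fold, and 0 were more than 2-fold higher (median -0.86). *atp5a1.L*, a subunit of the ATP synthase, had 3510 and 13562 counts (-1.77, interval -1.84 to -1.69). In the citric acid cycle, listed after the values were seen, 20 of 29 models were more than 2-fold lower and 0 higher (median -1.55). *mdh2.S*, malate dehydrogenase, had 86 and 1505 counts (-3.83). Citrate synthase, which opens the cycle, was the exception, with *cs.L* at 5861 and 6569 (0.018) and *cs.S* at 5697 and 5458 (0.24). The glycolysis list joined enzymes of the cytosol with glucose transporters and with genes such as *egln3*, *vegfa*, *bnip3* and *pdk1*, and was divided. Of its 31 models 14 were more than 2-fold lower, 9 of them past 4-fold, and 5 more than 2-fold higher (median -0.87). Those 5 included *egln3.L* (3.97) and *egln3.S* (2.25), copies of an oxygen-sensing hydroxylase and not of a glycolytic enzyme. Muscle genes were lower in the same library, and their part in these differences was not tested.

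Within the tissue lists, transcription factors differed from the other members, a division drawn after the values were seen. Over 14 lists, 43 of 157 factor models (27.4%) were more than 2-fold higher in control 1 and 53 (33.8%) more than 2-fold lower (median -0.019). Both shares were above the 11.3% and 20.2% of all models. Of 400 models of other members, 30 (7.5%) were more than 2-fold higher and 261 (65.25%) more than 2-fold lower (median -1.61). The gap was wide in the heart, with medians of 0.69 for factors and -2.39 for the rest, in the retina, with -0.38 and -2.57, and in the notochord and cartilage list, with 1.39 and -0.88. The pronephros, the embryonic kidney, had 0.94 and -0.72. There *pax8.L* and *osr2.S*, which specify the kidney field, had 386 and 64 counts (2.62) and 282 and 58 (2.30), and the transporters *slc5a2.L* and *slc4a4.L* had 2 and 125, and 63 and 719 (-3.19). Factors were lower as well in the lens (-2.36), the vessels (-1.53), the neurons (-1.36) and the red blood cells (-1.05). The other members of these lists had -3.59, -2.05, -1.93 and -1.54, so there both kinds of member were lower in control 1.

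The L and S copies of a gene offered a second reading of the same difference, though not an independent one, as both come from the same libraries and similar copies can share reads. Across 7236 pairs in which both copies passed the filter, the differences of L and S correlated with a Pearson r of 0.68 and a Spearman rho of 0.62. Both copies were more than 4-fold lower in control 1 in 287 pairs and more than 4-fold higher in 71, and they were past 4-fold in opposite directions in 2. Of the 1002 pairs with at least 1 copy past 4-fold, 876 (87.4%) had the same sign in both. In 307 pairs, however, a copy past 4-fold stood beside a copy within 2-fold. *gad1.2.L* was counted 1392 times in control 1 and 4 times in control 2, and *gad1.2.S* 204 and 129 times (6.99 with an interval of 6.77 to 11.67, and 0.80), copies of a glutamate decarboxylase, the enzyme that makes GABA. The L copy was at 92.9 CPM in control 1 and at 0.454 to 3.18 in the MO libraries, so it was high in control 1 alone of the 6. *tnni1.2.S* and *tnni1.2.L*, slow troponin I, were at 18 and 1365 and, for L, 2550 and 4774. For *gng7.S*, a G protein subunit, the 6 libraries fell apart without regard to group, at 1.2 and 45.8 CPM in the controls, 0.597 and 0.303 in *kdm5c* MO 1 and 2, and 0.0964 and 26.5 in *kdm3a* MO 3 and 4, while *gng7.L* stayed within 59.9 to 149.7 CPM.

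**Figure D4:**
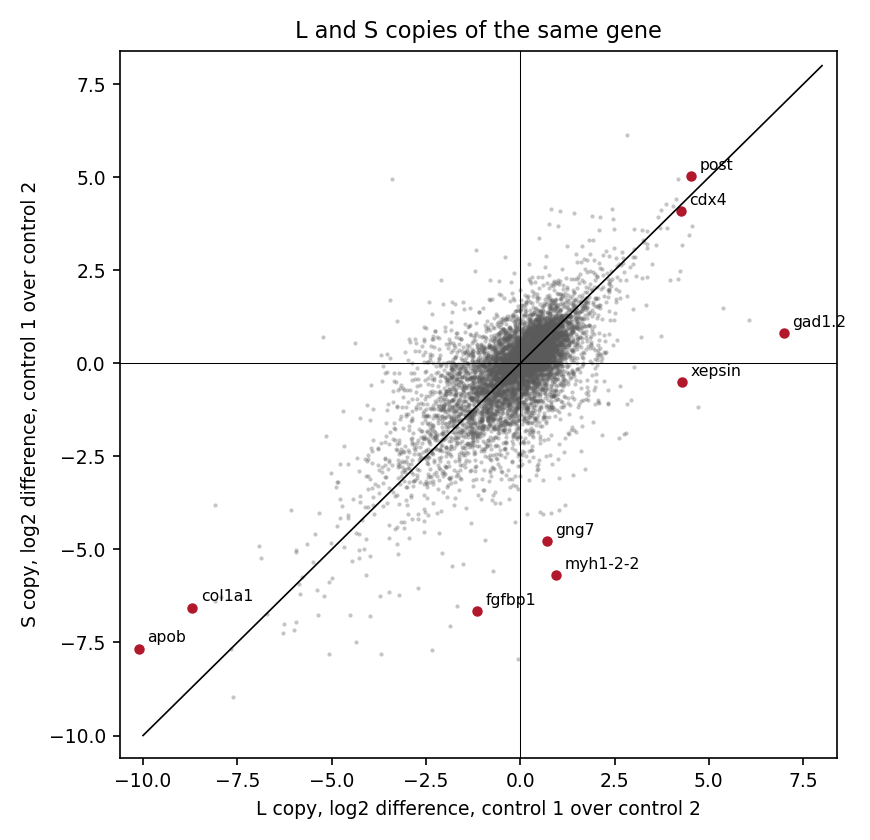
Difference between the controls (log2, control 1 over control 2) of the S copy (vertical) against that of the L copy (horizontal) for 7236 genes, with the line of equality and with chosen genes in red. *apob* and *col1a1* are low and *post* and *cdx4* high in both copies, whereas *gad1.2*, *gng7* and *myh1-2-2* are displaced in 1 copy.

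The 4 MO libraries served only to place the controls. Of the 2050 models more than 4-fold lower in control 1, all 4 lay nearer to control 2 in 995 (48.5%) and nearer to control 1 in 22, and control 1 was the lowest of the 6 in 1730 (84.4%). Of the 629 more than 4-fold higher, these numbers were 299 (47.5%), 13 and, for control 1 as the highest, 553 (87.9%). *kdm5c* MO 2 was nearest to control 2, with 93.3% of the lower models and 85.4% of the higher ones on that side, and *kdm5c* MO 1 the least, with 61.9% and 62.5%. Because the models were picked for their distance between the controls, a control or both tended to lie far out. The shares for control 2 as outermost are not given, so those for control 1 do not by themselves say which control lay apart. *apob.L* was at 0 CPM in control 1, 90.8 to 566 in the MO libraries and 555 in control 2. *chrd.S* was at 108 in control 1, 4.54 to 17 in the MO libraries and 5.06 in control 2, so that on both sides control 1 was outside the range of the other 5. For *krt.S* control 1 was only just the highest, as the CPM was 3717 in control 1, 752 to 3523 in the MO libraries and 408 in control 2, with control 2 the lowest of all.

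**Figure D5:**
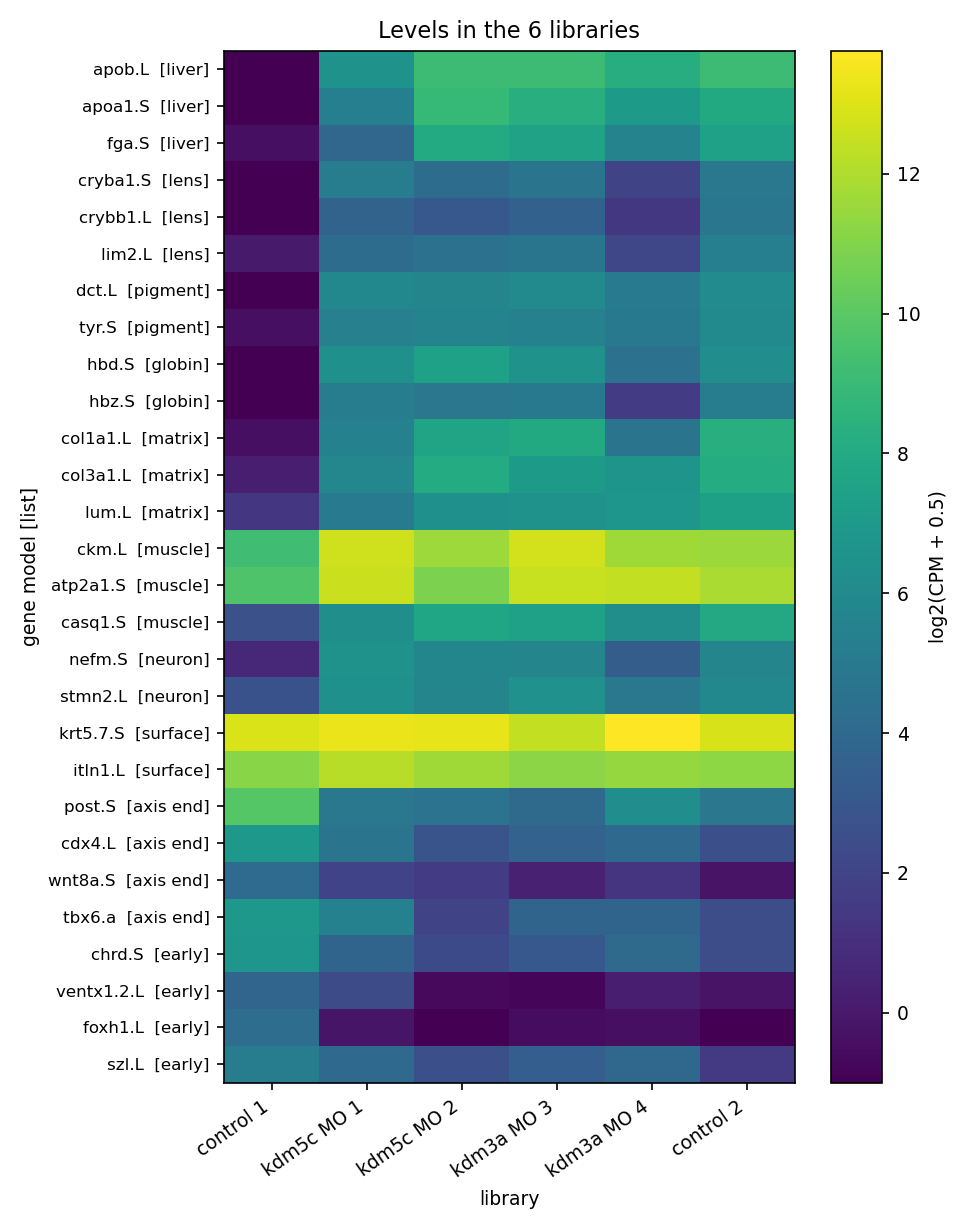
Level of chosen models, log2(CPM + 0.5) by colour, in control 1, the 4 MO libraries and control 2. Liver, lens, pigment, globin and matrix genes are darkest, that is lowest, in control 1, and the posterior and early genes are brightest there, while the skin genes *krt5.7.S* and *itln1.L* change little in colour between libraries.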

How the data were processed

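Raw counts per gene model were used as deposited by the authors, who aligned reads to cDNAs of the frog genome with BWA (version 0.7.10 in the submitters' processing notes). The counting tool and its handling of pairs and of reads that match several models are not given in the sources used here. Totals were 14603570 counts in control 1 and 14718840 in control 2, so the precision for a model follows from its own count. TMM factors came from all 6 libraries (edgeR 4.0.16, R 4.3.3), and CPM, differences and lists from Python 3.11.15. The steps were tested on simulated read pairs. Models needed a mean of 1 CPM. Groups came from the sample labels, and the members and lists were chosen with earlier results of these data known. Besides 33 lists, 8 more, the *hox* groups and the division by transcription factors were drawn after the values were seen. A symbol is a name other than a model, locus or clone number. Named by rule were the 20 symbols with the highest mean, the 15 largest differences each way from 10 CPM on, the 10 largest each way among the 1000 most abundant, 4 abundant members of each list, and the 4 most displaced of lists with a median beyond 1. These were 228 models. Other genes were chosen after their values were seen. The list of hatching gland genes matched 0 models, and that of replication histones left 1 past the filter. Alternatives were library totals, TMM of the controls alone, upper-quartile and median-of-ratios factors (DESeq2 1.42.0), pseudocounts of 0.1 and 2 CPM, no filter, a mean of 5 CPM, summed copies, and thinning. Positions are left out, since no genome of the authors' build was used here.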

Additional observations from a re-analysis of the deposited data

How the results depend on the processing

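All values rest on 1 library a side, so replicate error is unknown, and leaving out a control leaves no difference. No paired analysis was possible because each side holds 1 library. Of the main counts and list medians under the 10 alternatives, 433 stayed within their spread, 16 moved and 1 reversed in direction. Medians near 0 could also change sign. They ran from -0.80 to 0.23 for the pronephros, from -0.29 to 0.52 for neural crest and from -0.056 to 0.41 for myogenic regulators. The range was -0.050 to 0.88 for endoderm and pancreas, and -0.28 to 0.59 for the transcription factors of the tissue lists. Of single models 1935 stayed, 340 moved and 1 reversed. With library totals only, the medians were 0.32 for multiciliated cells and -0.30 for ribosomal proteins, beside an all-model median of -0.148. A pseudocount of 0.1 CPM gave -4.68 for the lens and -5.95 for the liver. A pseudocount of 2 CPM gave 359 models more than 4-fold higher in control 1 and 877 more than 4-fold lower in control 1, and medians of -1.30 for neurons, -1.91 for the lens, 1.72 for early embryo patterning and -1.27 for tissue list members other than factors. Without the filter these were -2.57 for the lens, 1.63 for early embryo patterning and -1.25 for members other than factors. With a mean of 5 CPM, which drops low models, the number of models more than 4-fold lower in control 1 was 1006 and that of models more than 2-fold lower in control 1 was 2534, the factors had a median of 0.59 and the heart list turned to 0.55. Several list medians that also moved by over 1.5 times came, at the setting nearest to 0, to these values for liver plasma proteins (-2.49), inner ear matrix (-1.49) and striated muscle myosin heavy chains (-0.91) without the filter, pigment cells (-1.28), retina (-0.70) and tailbud and somite formation (1.01) at a pseudocount of 2 CPM, and vessels (-0.88), red blood cells (-0.91) and myeloid cells (-0.20) at 5 CPM. Other list medians moved as far. Their ranges were 0.071 to 0.26 for hypoxia-responsive genes, 0.14 to 0.47 for neural progenitors and 0.019 to 0.23 for proliferation. For immediate early genes the range was 0.29 to 0.72, for germ cells 0.42 to 2.09 and for larval epidermis 0.36 to 0.67. With copies summed, *mpo* turned to 0.13. Intervals on counts as deposited had a median width of 0.19, but counts come in pairs.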

Other observations

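Genes known to respond to low oxygen were listed after the values were seen. Of 35 models, 8 were more than 4-fold higher in control 1 and 1 more than 4-fold lower (median 0.23), beside 2.58% and 8.42% of all models. *egln3.L*, an oxygen-sensing prolyl hydroxylase, was counted 913 times in control 1 and 58 times in control 2 (3.97). *pfkfb3.L*, a regulator of glycolysis, had 1257 and 172 counts (2.99), *ddit4.S*, an inhibitor of growth signalling, had 2233 and 419 (2.57), and *ankrd37.L* had 481 and 22 (4.18). The L and S copies of these genes agreed in direction. Other genes of the list stood near equality, among them *hif1a.L*, the sensor's target factor, with 1154 and 1605 (-0.29), *pdk1.L* with 247 and 286 (-0.028) and *vegfa.L* with 293 and 474 (-0.50), and *ndrg1.S* was lower with 213 and 1812 (-2.86), unlike its copy *ndrg1.L* with 561 and 797 (-0.32).

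Germ line and egg transcripts were few. Of 33 models found, 14 passed, 5 of them more than 4-fold higher in control 1 and 0 more than 4-fold lower. *ddx4.L*, the vasa helicase of germ cells, had 788 and 199 counts (2.12) and *pgat.L*, of the germ plasm, had 402 and 62 (2.72).

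The defence genes named here differed in both directions. *mmp9.S*, a protease of white cells, was counted 2 times in control 1 and 1316 times in control 2, and *mx2.L*, an interferon-induced GTPase, 0 and 407 times, while *il1b.S*, interleukin 1 beta, had 48 and 4 (2.33). Of 41 models, 10 lay more than 4-fold below control 2 and 1 that far above it.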
